A study of Homo sapiens with 6 samples.

Results

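Peaks of 82-kDa ChAT and of SATB1 were examined over 53 genes for synaptic and neuronal adhesion proteins, out of the 20033 protein-coding genes of the annotation on chromosomes 1 to 22, X and Y. The genes were taken by name: neurexins, neuroligins, contactins, contactin-associated proteins, teneurins, latrophilins, IgLONs and related adhesion genes, in 16 families. A peak belonged to a gene when it touched the gene's body, from the first to the last annotated base, and 172 peaks of the 4 peak lists did so. SH-SY5Y is a human neuroblastoma line with neuronal traits. The cells stably expressed heterologous 82-kDa ChAT, the nuclear form of the acetylcholine-synthesising enzyme choline acetyltransferase, and had been differentiated with retinoic acid for 3 d. They were then exposed for 4 h either to vehicle, which was Ham's F-12 medium, or to 100 nM oligomers of the amyloid-β peptide Aβ1-42. Chromatin was immunoprecipitated with an in-house antibody to the C-terminus of ChAT, a part shared with the shorter form of the enzyme, or with an antibody to SATB1, a protein that anchors AT-rich DNA to the nuclear matrix. Each protein and treatment had 1 sequenced library, from cells of 3 plates per treatment, and the 2 input samples were not used here.

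Synaptic adhesion proteins reach across the cleft between an axon terminal and its target cell. Presynaptic organisers such as neurexins and LAR-type receptor phosphatases bind postsynaptic partners such as neuroligins, LRRTMs and IL1RAPL1, and teneurins bind latrophilins. Contactins, L1-type proteins and the contactin-associated proteins organise axonal contacts and the myelinated axon, whereas IgLONs, SynCAMs, NCAMs and DSCAMs are immunoglobulin-type proteins of neurite growth and cell contact. Many of these genes are among the longest in the genome, most of their length is intron, and a long gene meets more peaks of any list. Each count is therefore given beside the number expected from length, that is, the number that would touch the gene if the same peaks lay on any known base of the chromosomes with equal chance.

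On these chromosomes the 82-kDa ChAT lists held 7460 peaks (vehicle) and 6345 peaks (Aβ1-42), and the SATB1 lists held 2884 and 5857. With 1 library per protein and treatment there is no replicate error and no p-value. The 95% intervals are exact Poisson or Clopper-Pearson intervals, or normal ones for differences, and cover counting error only. The lists do not give the depth of each library, and reads without molecular identifiers are not independent molecules. The SATB1 list after Aβ1-42 stood apart from the others, since 76.1% of all its peaks matched a copy of the Alu repeat, against 7.91% to 13.7% in the other lists. A peak list holds no expression values, so the cell type was not checked against marker genes.

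The bodies of the 53 genes cover 31.3 Mb, or 1.06% of the known bases. Their median length was 352 kb against 27.5 kb for all protein-coding genes, and 24 of them reached 500 kb. Their GC content was 38.2%, below the 40.9% of the genome. For 82-kDa ChAT, 43 peaks touched them after vehicle where 79.4 were expected, a ratio of 0.542 (0.392 to 0.729). After Aβ1-42 there were 50 peaks against 67.5 expected, a ratio of 0.740 (0.550 to 0.976). For SATB1, 27 peaks were found after vehicle against 30.7 expected, a ratio of 0.880 (0.580 to 1.28). After Aβ1-42 the 52 SATB1 peaks compared with 62.3 expected, a ratio of 0.834 (0.623 to 1.09). Thus the adhesion genes held fewer 82-kDa ChAT peaks than their length predicts in both treatments, and for SATB1 both intervals included 1. The vehicle value of 82-kDa ChAT stayed below 1 with its interval in each of the 11 alternatives tried, whereas after Aβ1-42 the upper bound passed 1 in 6 of them. For SATB1 after Aβ1-42 the ratio without CNTNAP2 was 0.675 (0.480 to 0.923). That gene was left out after its high count in this list was seen. Leaving it out lowers the ratio by construction, so this interval is not evidence of a shortfall.

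Gene bodies as a whole also held fewer peaks than expected in 3 lists. Over all protein-coding genes the ratio was 0.822, 0.954, 0.809 and 1.06 for 82-kDa ChAT vehicle, 82-kDa ChAT Aβ1-42, SATB1 vehicle and SATB1 Aβ1-42. The 299 other protein-coding genes of 500 kb or more had ratios of 0.826, 0.903, 0.815 and 0.711 in the same order. Divided by the ratio of those long genes, the adhesion genes stood at 0.655 (0.468 to 0.895) for 82-kDa ChAT after vehicle. The corresponding value was 0.820 (0.600 to 1.10) after Aβ1-42. For SATB1 it was 1.08 (0.694 to 1.62) after vehicle and 1.17 (0.858 to 1.57) after Aβ1-42. Only in the vehicle list of 82-kDa ChAT, among the 4 lists, did the adhesion genes lie below other long genes by more than the counting interval. The vehicle shortfall lay mostly in the long members. The 14 members of 500 to 1000 kb had 13 peaks against 29.0 expected (0.448, 0.238 to 0.766), and the 10 longer ones had 20 against 38.3 (0.523, 0.319 to 0.807). The shorter members held 2 peaks where 1.24 were expected under 100 kb and 8 where 10.9 were expected from 100 to 500 kb. Peaks rich in the satellite pentamer CATTC (at least 3 copies per 100 nt) made up 16.0% of the whole vehicle list of 82-kDa ChAT. They were 1.04% of its peaks in other protein-coding genes and none of its 43 peaks in these genes, so their absence is not particular to the adhesion genes. Without CATTC-rich peaks the ratio was 0.644 (0.466 to 0.868).

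**Figure D1:**
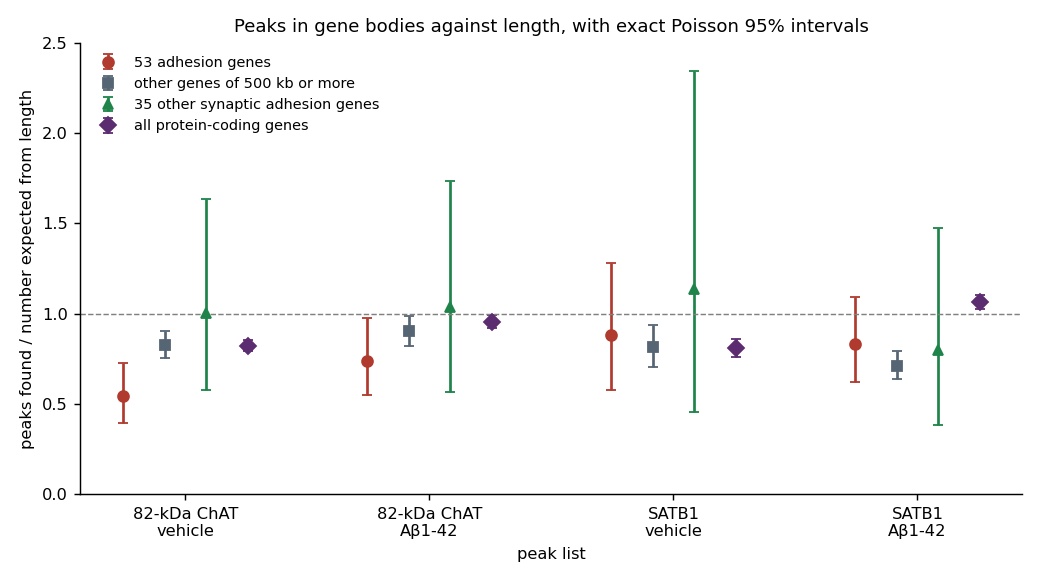
The vertical axis gives the peaks found in gene bodies divided by the number expected from length, with exact Poisson 95% intervals, for 4 gene sets in each of the 4 peak lists, and the dashed line marks a ratio of 1. The 53 adhesion genes lie lowest in the vehicle list of 82-kDa ChAT, at 0.542, and their intervals include 1 in both SATB1 lists.

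At least 1 peak was found in 24 of the 53 genes (45.3%) for 82-kDa ChAT after vehicle and in 29 (54.7%) after Aβ1-42. For SATB1 the numbers were 19 (35.8%) after vehicle and 27 (50.9%) after Aβ1-42. Of all protein-coding genes, 10.5%, 11.1%, 4.83% and 12% had a peak in these lists, in the same order. Among protein-coding genes of 500 kb or more the shares were 72.8%, 75.9%, 47.7% and 66.3%, so the shares of the adhesion genes lay between those of all genes and of long genes. From the members' own lengths 30.7, 28.9, 19.3 and 27.9 genes would be expected to hold a peak. The count for 82-kDa ChAT after vehicle was thus below its expectation, and the other 3 counts lay within 1 gene of theirs.

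Over the 4 lists, 42 of the 53 genes (79.2%) held a peak, as did 26.9% of all protein-coding genes and 96.9% of those of 500 kb or more. Of the 24 members of that length, 23 (95.8%) did. Contactin-5 (CNTN5), CNTNAP2, CNTNAP5, IL1RAPL1, TENM2 and neurofascin (NFASC) held one in every list (11.3% of the members, against 0.564% of all protein-coding genes and 22.6% of the long ones). A further 12 genes held peaks in 3 lists, 15 in 2 lists and 9 in 1 list. The 11 genes with no peak were NLGN3, CNTN3, CNTNAP1, LRRTM1, LRRTM2, CADM4, ADGRL1, ADGRB2, ADGRB3, L1CAM and CHL1. Of these, 8 are shorter than 100 kb. ADGRB3, a receptor of the brain angiogenesis inhibitor family, is 755 kb long and had 0 peaks where 5.80 were expected. Summed over the lists, 37 of the 53 genes lay under their expected number, as did 19 of the 24 genes of 500 kb or more. The same count was not made for other genes, so these numbers show nothing particular to the adhesion genes. The other genes of 500 kb or more also lay below expectation as a set, with ratios of 0.711 to 0.903 over the lists. A gene expected to hold less than 1 peak lies under its number whenever it has none.

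**Figure D2:**
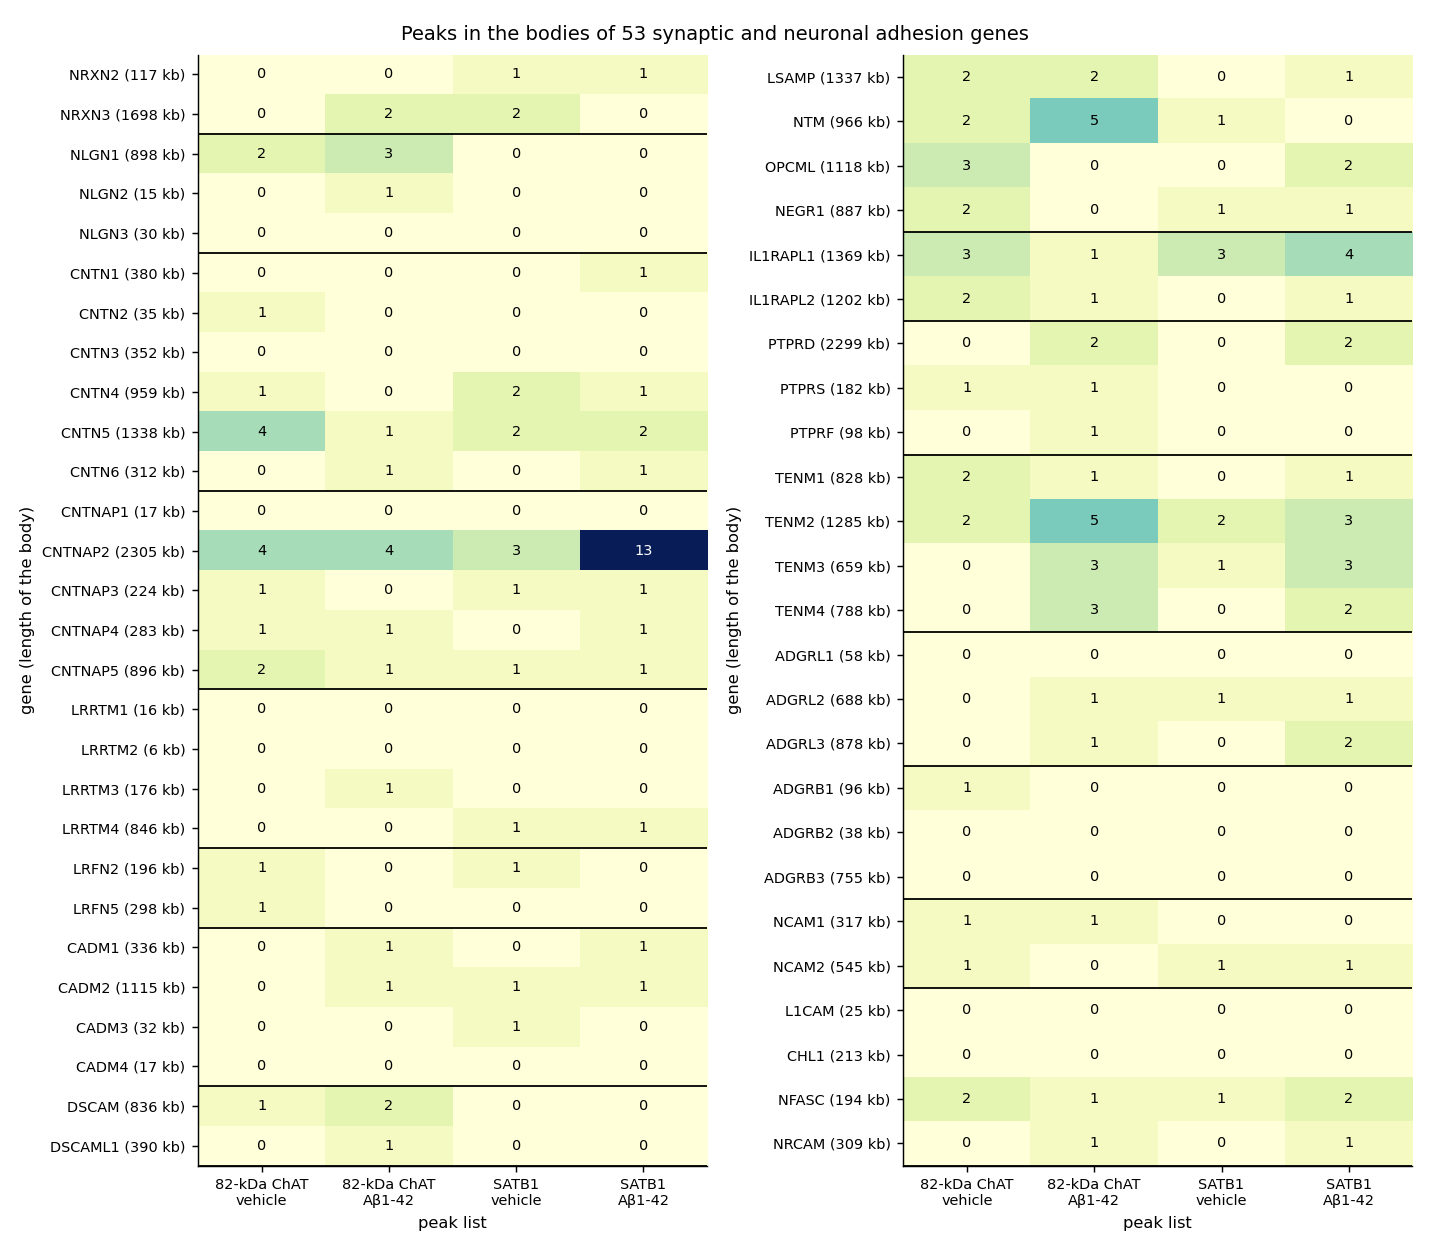
Each cell gives the number of peaks that touch 1 gene (rows, with the length of its body in kb) in 1 peak list (columns), darker for more peaks, and black lines separate the families. Most cells hold 0 to 3 peaks, and CNTNAP2 stands apart with 13 SATB1 peaks after Aβ1-42.

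Peaks of different lists met at 10 places within these genes, and their sequences show where the lists had a base in common. At 5 of them, a peak of 82-kDa ChAT and a peak of SATB1 overlapped in vehicle-treated cells. These lay in CNTN4 (intron 14), CNTN5 (intron 3), CNTNAP2 (intron 3), NEGR1 (intron 4) and NFASC (intron 10, next to exon 10, which the longer SATB1 peak also touches), counted on the MANE Select transcript, the reference transcript chosen for each gene. All sequences are written from the plus strand of hg38, and capitals mark the bases that lie in the peaks of both lists, for 4 of these 5 loci.
CNTN4, chr3:3022815-3022968: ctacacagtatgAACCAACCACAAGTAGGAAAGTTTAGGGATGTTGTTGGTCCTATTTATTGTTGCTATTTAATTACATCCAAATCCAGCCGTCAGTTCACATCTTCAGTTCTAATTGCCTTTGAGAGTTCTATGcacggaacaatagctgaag
CNTN5, chr11:99814687-99814807: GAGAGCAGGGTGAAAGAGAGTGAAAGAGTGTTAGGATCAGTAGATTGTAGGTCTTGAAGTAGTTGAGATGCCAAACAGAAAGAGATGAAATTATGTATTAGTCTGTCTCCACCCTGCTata
NFASC, chr1:204968971-204969247: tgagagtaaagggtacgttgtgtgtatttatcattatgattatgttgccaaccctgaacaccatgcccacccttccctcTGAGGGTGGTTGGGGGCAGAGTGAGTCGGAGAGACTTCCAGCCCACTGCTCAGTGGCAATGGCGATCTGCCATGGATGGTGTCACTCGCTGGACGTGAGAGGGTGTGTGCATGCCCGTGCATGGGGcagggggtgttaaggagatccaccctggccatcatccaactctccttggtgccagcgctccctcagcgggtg
NEGR1, chr1:71611550-71611699: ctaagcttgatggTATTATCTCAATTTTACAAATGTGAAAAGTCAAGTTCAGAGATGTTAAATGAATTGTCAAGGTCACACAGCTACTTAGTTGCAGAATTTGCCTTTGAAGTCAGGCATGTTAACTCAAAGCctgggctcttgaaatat

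None of these 5 common loci had a recurring word of 12 bases, and the 31 bases at the middle of each of the 5 occurred at 1 place in the genome. Their GC content ran from 36.0% in NEGR1 to 57.0% in NFASC. The CNTN4 locus held the highest score among all 82-kDa ChAT peaks of these genes after vehicle, 140.71, beside a SATB1 score of 75.1. On this scale of the peak caller 50 stands for a p-value of 1e-05, the threshold of the lists, and each 10 further points divide it by 10. At CNTN5 the scores were 124.17 for 82-kDa ChAT and 70.87 for SATB1, and 118 of the 121 bases lay in both peaks. CNTNAP2, NFASC and NEGR1 had scores between 51.2 and 67.7 in both lists.

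The other 5 places joined lists of different treatments or both Aβ1-42 lists. TENM2 contributed a locus in intron 9, shared by 82-kDa ChAT after vehicle and SATB1 after Aβ1-42, and one in intron 3, shared by both proteins after Aβ1-42. CNTNAP5 (intron 6) also had a locus shared by both proteins after Aβ1-42. DSCAM (intron 3) and NTM (intron 2) were the places where 82-kDa ChAT had overlapping peaks in both treatments. Capitals again mark the bases in both peaks, and for NTM the peak after Aβ1-42 is shown, which lies wholly inside the 618-base peak of the vehicle list.
TENM2 intron 9, chr5:168068729-168068878: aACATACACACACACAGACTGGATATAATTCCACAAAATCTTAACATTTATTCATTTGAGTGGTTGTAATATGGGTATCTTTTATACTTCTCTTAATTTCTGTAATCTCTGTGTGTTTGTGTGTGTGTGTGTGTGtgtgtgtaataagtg
TENM2 intron 3, chr5:167349577-167349703: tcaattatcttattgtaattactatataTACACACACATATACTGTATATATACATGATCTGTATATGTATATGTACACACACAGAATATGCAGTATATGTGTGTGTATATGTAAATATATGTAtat
DSCAM, chr21:40433674-40433867: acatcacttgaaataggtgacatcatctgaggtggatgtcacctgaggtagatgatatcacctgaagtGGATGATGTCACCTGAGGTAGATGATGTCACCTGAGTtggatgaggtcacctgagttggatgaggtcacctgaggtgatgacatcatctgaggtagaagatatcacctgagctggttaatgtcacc
NTM, chr11:132070022-132070264: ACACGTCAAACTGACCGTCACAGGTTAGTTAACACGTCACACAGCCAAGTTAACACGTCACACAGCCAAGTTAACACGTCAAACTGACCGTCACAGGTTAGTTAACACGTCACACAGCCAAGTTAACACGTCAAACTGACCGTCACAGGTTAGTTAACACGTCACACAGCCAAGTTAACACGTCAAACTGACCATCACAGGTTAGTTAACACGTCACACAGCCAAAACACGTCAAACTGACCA

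Unlike the former 5, most of these printed sequences held repeated words. In NTM, 91.9% of the words of 12 bases in the locus recurred within it, and in DSCAM 43.2% did. The TENM2 locus in intron 9 ends in a run of TG, and 10.1% of its words recurred, whereas the locus in intron 3 had no recurring word and 23.6% GC.

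The overlaps were few in number. Of the 43 vehicle peaks of 82-kDa ChAT in these genes, 5 (11.6%, 3.89 to 25.1) overlapped a SATB1 vehicle peak. Other protein-coding genes gave 9.27% (8.20 to 10.4). Seen from SATB1, 5 of 27 vehicle peaks (18.5%) overlapped 82-kDa ChAT, and 24.1% did so in other genes. After Aβ1-42, 2 of 50 peaks of 82-kDa ChAT (4%) overlapped SATB1, against 2.88% in other genes. Between the treatments of 82-kDa ChAT, 2 of 43 vehicle peaks (4.65%) recurred, against 2.87% in other genes. No SATB1 vehicle peak of these genes overlapped a SATB1 Aβ1-42 peak, 0 of 27, which allows a share of up to 11.1% when a count of 0 is taken to allow 3 counts, the rule used for every count of 0 here. None of the 50 peaks of 82-kDa ChAT after Aβ1-42 overlapped SATB1 after vehicle, which allows up to 6%. Each share of the adhesion genes had an interval that included the share of other genes.

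Among the presynaptic organisers, the neurexins NRXN2 and NRXN3 held 0, 2, 3 and 1 peaks in the order 82-kDa ChAT vehicle, 82-kDa ChAT Aβ1-42, SATB1 vehicle and SATB1 Aβ1-42, which is used for all counts below. Their sum of 6 compared with 13.9 expected (ratio 0.431, 0.158 to 0.937). NRXN3, 1698 kb long, had 0, 2, 2 and 0 peaks, all of them intronic. NRXN2 had 1 SATB1 peak in each treatment and none for 82-kDa ChAT. The LAR phosphatases PTPRD, PTPRS and PTPRF, receptor tyrosine phosphatases of the axon terminal, held 1, 4, 0 and 2 peaks, 7 in all against 19.8 expected (0.354, 0.142 to 0.728). The shortfall lay in PTPRD. It is nearly as long as CNTNAP2, at 2299 kb, and had 0, 2, 0 and 2 peaks, 4 against 17.6 expected, with a peak only in the Aβ1-42 list of each protein. Its 2 SATB1 peaks matched Alu sequence and its 2 peaks of 82-kDa ChAT did not.

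Among the postsynaptic partners, the neuroligins held 2, 4, 0 and 0 peaks. NLGN1, the neuroligin of excitatory synapses, had 2 peaks of 82-kDa ChAT after vehicle and 3 after Aβ1-42, with no SATB1 peak in either treatment. NLGN2, the neuroligin of inhibitory synapses, is 15.0 kb long and had 1 peak of 82-kDa ChAT after Aβ1-42 in intron 6. The interleukin-1 receptor accessory-like protein IL1RAPL1 binds PTPRD across the cleft. Its gene (chrX:28587446-29956718) held 3, 1, 3 and 4 peaks and IL1RAPL2 held 2, 1, 0 and 1. The leucine-rich repeat genes were sparse, with 0, 1, 1 and 1 peaks in the 4 LRRTM genes and 2, 0, 1 and 0 in LRFN2 and LRFN5.

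Teneurins are large type II membrane proteins that pair with latrophilins, and their genes held 4, 12, 3 and 9 peaks. For 82-kDa ChAT this was 0.442 of the expected number after vehicle (0.121 to 1.13) and 1.56 times it after Aβ1-42 (0.806 to 2.73). TENM2 (chr5:166979029-168264157) had 2 and 5 peaks of 82-kDa ChAT, TENM3 had 0 and 3, TENM4 had 0 and 3, and TENM1 had 2 and 1. TENM1 was thus the only teneurin gene without more peaks of 82-kDa ChAT after Aβ1-42. As a share of all peaks in the list, teneurin peaks were 3.53 times as frequent after Aβ1-42 as after vehicle (1.07 to 15.0). This was the only one of 29 such ratios, over families and proteins with a peak, whose interval did not include 1, and no adjustment was made for their number. For SATB1 the teneurin ratio was 1.48 (0.369 to 8.48). The latrophilins ADGRL1, ADGRL2 and ADGRL3 held 0, 2, 1 and 3 peaks, with none of the 4.13 expected for 82-kDa ChAT after vehicle.

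Contactins are lipid-anchored immunoglobulin proteins of the axon, and the 6 genes held 6, 2, 4 and 5 peaks. CNTN5 (chr11:99020949-100358885) had 4, 1, 2 and 2 of these and CNTN4 had 1, 0, 2 and 1. Both carry a locus shared by the 2 proteins after vehicle, printed above. The contactin-associated proteins held 8, 6, 5 and 16 peaks against 9.46, 8.05, 3.66 and 7.43 expected. The last list had a ratio of 2.15 (1.23 to 3.50), the only one of 64 combinations of family and list whose interval lay above 1, while 5 lay below 1. CNTNAP3, CNTNAP4 and CNTNAP5 had 1 SATB1 peak each after Aβ1-42, so the excess was in CNTNAP2. CNTNAP3 has near-identical copies in the genome, and its 3 peaks are uncertain for that reason. CNTNAP1, the member of paranodal junctions, is 17.5 kb long and had no peak.

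The IgLONs LSAMP, NTM, OPCML and NEGR1, anchored cell-surface proteins of neurite outgrowth, held 9, 7, 2 and 4 peaks, 22 against 33.1 expected (0.665, 0.417 to 1.01). LSAMP had 2, 2, 0 and 1 peaks. Neurotrimin (NTM, chr11:131370478-132336822) had 2, 5, 1 and 0 peaks, and only 2 of the 323 long genes had more peaks of 82-kDa ChAT after Aβ1-42. OPCML had 3, 0, 0 and 2, and NEGR1 had 2, 0, 1 and 1. Within the family the direction between treatments was mixed, since NTM had more peaks of 82-kDa ChAT after Aβ1-42, and OPCML and NEGR1 had theirs only after vehicle.

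The remaining families had few peaks. The SynCAM genes CADM1 to CADM4 held 0, 2, 2 and 2, and DSCAM and DSCAML1 held 1, 3, 0 and 0. NCAM1 and NCAM2 held 2, 1, 1 and 1. In the L1 family the counts were 2, 2, 1 and 3, and 6 of these 8 peaks lay in NFASC, which clusters sodium channels at the axon initial segment and the node of Ranvier. NFASC (chr1:204828651-205022822) had 2, 1, 1 and 2 peaks in 194 kb, 6 against 1.49 expected, none of which matched Alu sequence. The brain angiogenesis inhibitors ADGRB1, ADGRB2 and ADGRB3 had 1 peak, in ADGRB1, against 6.82 expected (0.147, 0.00371 to 0.816). Over the 4 lists together, the interval lay below 1 for neurexins, LAR phosphatases and brain angiogenesis inhibitors, 3 of the 16 families, and above 1 for none. No adjustment was made for the number of families. The other genes of 500 kb or more also lay below 1, with ratios of 0.711 to 0.903 over the lists. Single families were not compared with those long genes, so a ratio below 1 need not be particular to a family.

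**Figure D3:**
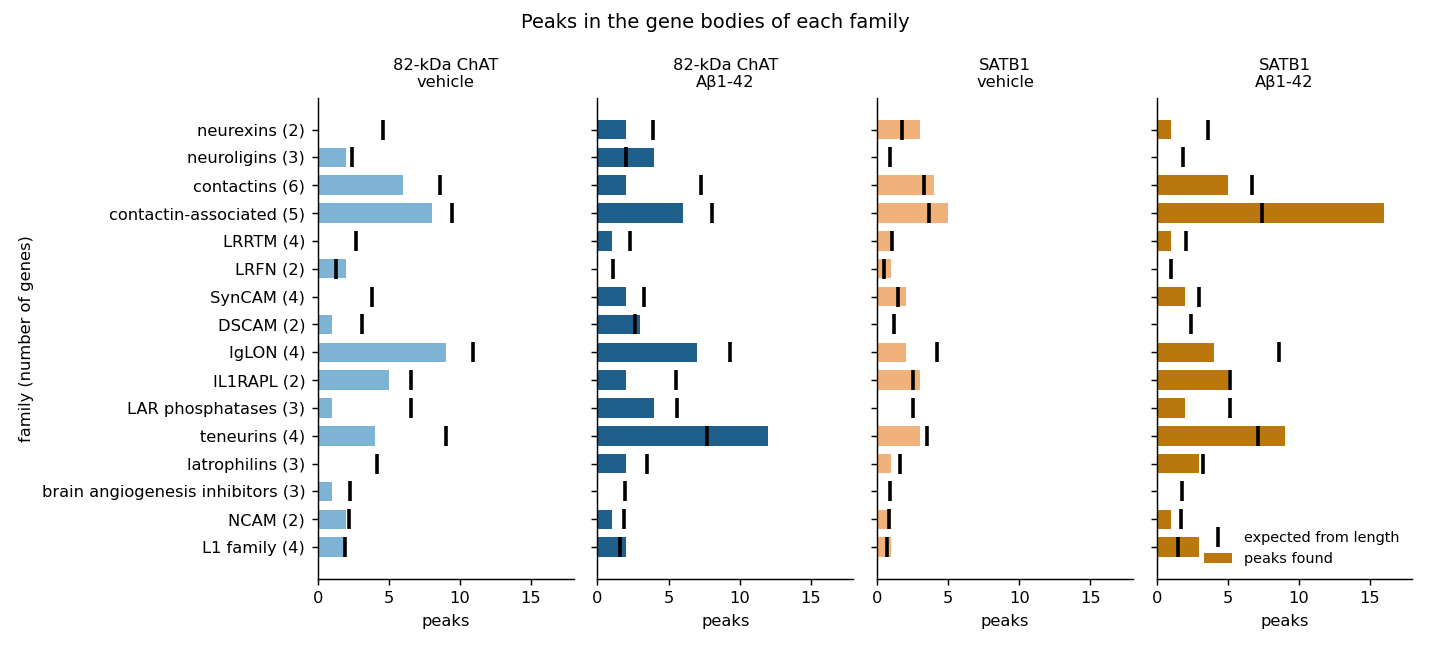
Bars give the peaks found in the gene bodies of each family (rows, with the number of genes) in each peak list (panels), and black ticks give the number expected from length. The bar passes the tick furthest for the contactin-associated genes in the SATB1 list after Aβ1-42, with 16 peaks against 7.43, and the teneurin bar goes from below its tick to above it between the lists of 82-kDa ChAT.

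CNTNAP2 encodes CASPR2, a neurexin-type protein that clusters potassium channels beside the node of Ranvier, and spans chr7:146116002-148420998. It held 4, 4, 3 and 13 peaks where 5.85, 4.98, 2.26 and 4.6 were expected. The 13 SATB1 peaks after Aβ1-42 were the most of any of the 323 genes of 500 kb or more in that list, while 8 of those genes had more peaks per Mb. Chromosome 7 as a whole was dense in this list, with 3.02 peaks per Mb against 1.99 over all chromosomes. From the rate of its own chromosome 6.96 peaks were expected, a ratio of 1.87 (0.995 to 3.19). The 13 peaks were scattered over the gene, with gaps of 3.17 to 603 kb and a median gap of 157 kb, and lay in introns 1, 4, 8, 11, 14, 15, 16 and 21. Of them, 11 matched an Alu copy and 10 matched 7SL RNA, the RNA of the signal recognition particle from which Alu repeats descend. The 4 peaks of 82-kDa ChAT in each treatment matched neither, and 1 of 3 SATB1 vehicle peaks matched both. No SATB1 peak of this gene recurred between treatments.

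In contrast to these Alu matches, the highest scoring peaks of the adhesion genes in the other 3 lists matched neither 7SL RNA nor an Alu copy. After Aβ1-42, 82-kDa ChAT had a score of 118.57 at a 51-base peak in NTM and at another of 51 bases in NFASC. The study's methods describe a run of 51-base single reads, so each of these peaks has the length of 1 read. Whether duplicate reads made up these peaks cannot be told from the lists. SATB1 after vehicle had its highest score, 75.46, at a 77-base peak in IL1RAPL1. Their middle 31 bases each occurred at 1 place in the genome. The sequences are from the plus strand of hg38, with no base marked.
NTM intron 1, chr11:131909697-131909747: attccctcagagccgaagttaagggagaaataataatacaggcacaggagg
NFASC intron 27, chr1:205004102-205004152: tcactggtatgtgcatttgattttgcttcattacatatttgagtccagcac
IL1RAPL1 intron 5, chrX:29526035-29526111: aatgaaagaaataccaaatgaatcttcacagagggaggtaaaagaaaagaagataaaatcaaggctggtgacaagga

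**Figure D4:**
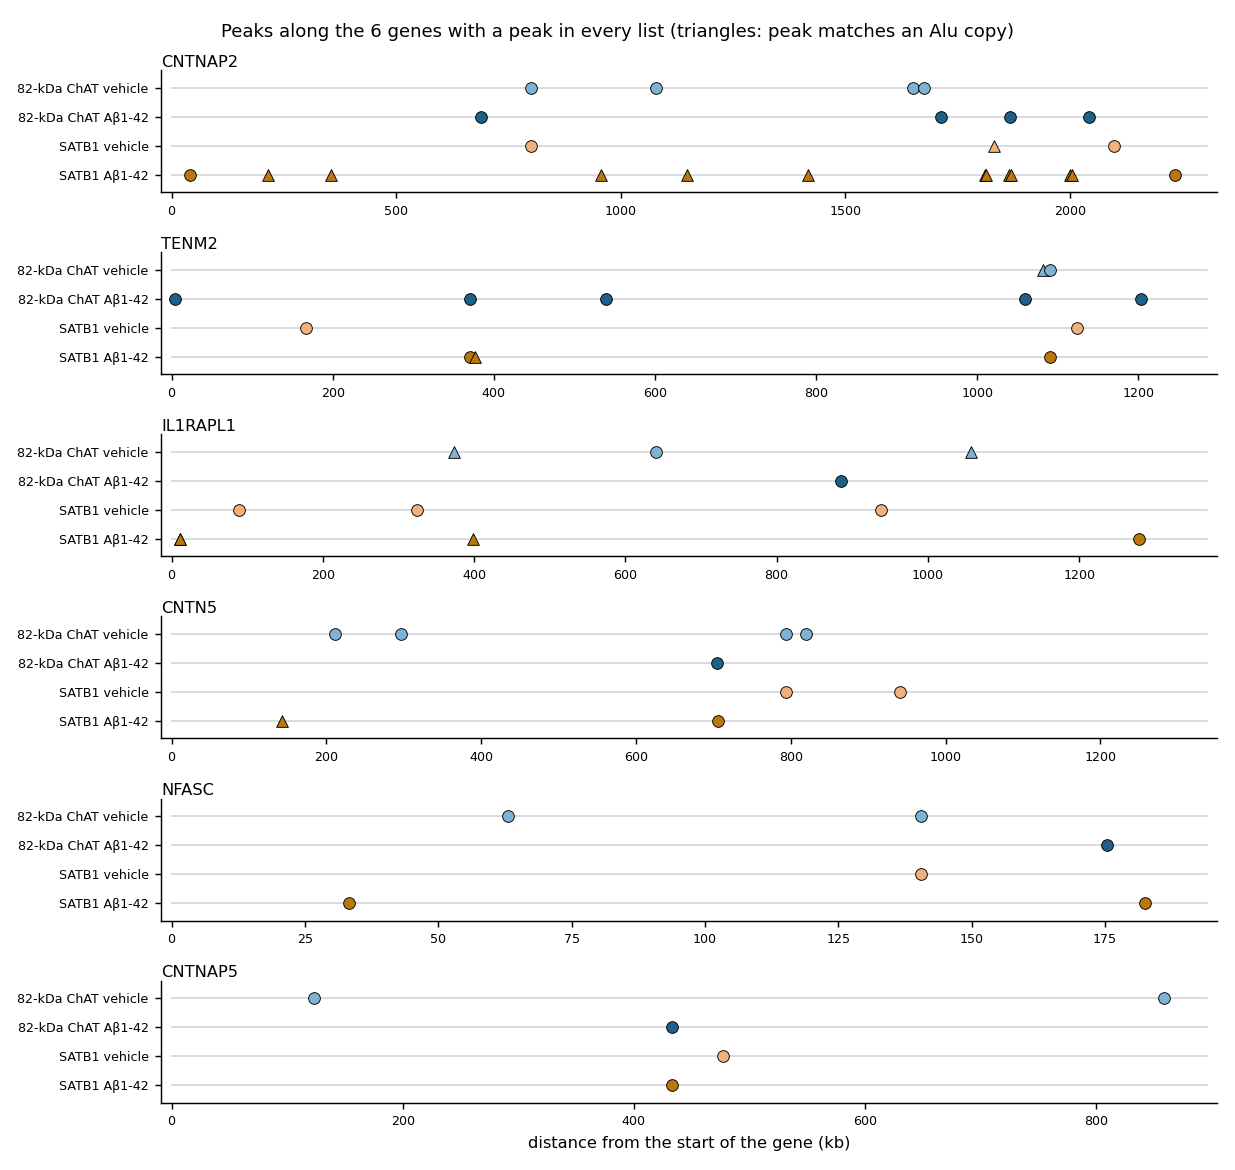
Peaks are placed by their distance in kb from the start of the gene for the 6 genes with a peak in every list, with 1 line per list, and triangles mark peaks that match an Alu copy. Triangles make up 11 of the 13 SATB1 peaks of CNTNAP2 after Aβ1-42, and few peaks of different lists stand at the same distance.

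Across all the adhesion genes, the repeat content of the peaks followed the list. The Alu copy matched 4 of 43 peaks of 82-kDa ChAT after vehicle (9.30%), 1 of 50 after Aβ1-42 (2%), 2 of 27 SATB1 peaks after vehicle (7.41%) and 39 of 52 after Aβ1-42 (75%). This copy was a SATB1 Aβ1-42 peak with its flanks, which can reach beyond the repeat, so a match need not be to Alu itself. The vehicle match in PTPRS, for example, had 62 nt, 12.9% GC and no match to 7SL RNA. In other protein-coding genes the shares were 10.2%, 17%, 12.2% and 82.9%. For 82-kDa ChAT after Aβ1-42 the adhesion genes were thus 15.0 percentage points lower (−19.1 to −10.9), and in the other 3 lists the interval of the difference included 0. The 15.0 points rest on 1 of 50 peaks, too few for a normal interval. The exact interval of that share, 0.0506 to 10.6%, lay below the 17% of other genes. This difference does not allow for the smaller content of 7SL-like sequence in the adhesion genes, given below. The stricter match to 7SL RNA gave 4.65%, 2%, 7.41% and 59.6%, against 6.22%, 10.5%, 5.14% and 69.2% in other genes. For 82-kDa ChAT after Aβ1-42 this difference was −8.48 points (−12.5 to −4.43), but it rests on 1 of 50 peaks, a share whose exact interval (0.0506 to 10.6%) includes the 10.5% of other genes. That peak lay in PTPRS. The pentamer CATTC, searched on both strands, reached 3 copies per 100 nt in none of the 172 peaks. In other protein-coding genes it did so in only 1.04%, 0.795%, 0.889% and 0.221% of the peaks, in the same order of lists. The 13 SATB1 peaks after Aβ1-42 that matched no Alu copy lay in 10 genes, CADM1, CNTN5, CNTN6, CNTNAP2, CNTNAP5, IL1RAPL1, IL1RAPL2, NFASC, NRXN2 and TENM2.

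The adhesion genes themselves hold less of such sequence than protein-coding genes as a whole. Stretches matching 7SL RNA made up 2.29% of their bases, 2.66% of other genes of 500 kb or more, 4.97% of all protein-coding genes and 4.20% of the chromosomes. From these stretches, 21.4 SATB1 peaks matching 7SL RNA would be expected after Aβ1-42 in the adhesion genes, and 31 were found (ratio 1.45, 0.983 to 2.05). For 82-kDa ChAT after Aβ1-42 the same calculation gave 1 peak against 3.16 expected (0.316, 0.00801 to 1.76). In CNTNAP2 there were 10 SATB1 peaks after Aβ1-42 where 2.05 were expected (4.87, 2.34 to 8.96). This expectation uses the rate of all chromosomes, although chromosome 7 was dense in this list (3.02 peaks per Mb against 1.99). It was not calculated from the rate of chromosome 7. Without CNTNAP2, chosen after its count was seen, 21 SATB1 peaks matching 7SL RNA were found after Aβ1-42 against 19.4 expected (1.08, 0.671 to 1.66). The other long genes had a ratio of 1.07 (0.931 to 1.23). The interval of the adhesion genes other than CNTNAP2 thus included the ratio of the other long genes.

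The motif TCCAT or TCCCAT, searched on both strands and contained in tandem CATTC, occurred in 13 of 43 peaks of 82-kDa ChAT after vehicle (30.2%) and 22 of 50 after Aβ1-42 (44%). For SATB1 it occurred in 9 of 27 (33.3%) and 11 of 52 peaks (21.2%). Peaks in other protein-coding genes held it in 31.3%, 27.8%, 34.6% and 16.5%, and all peaks of the lists in 41.2%, 31.1%, 37.4% and 18.2%. Only for 82-kDa ChAT after Aβ1-42 did the interval of the difference from other genes leave out 0, at 16.2 points (2.29 to 30), among the 4 lists. The median length of the peaks was 126, 104, 131 and 126 nt, and the median GC content 39.5%, 40.0%, 40.2% and 51.7%. The list with the most Alu matches thus also had the highest GC content.

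Nearly all peaks lay inside introns, and 6 of the 172 lay in another protein-coding gene as well. In the first, middle and last of 3 equal stretches along the genes lay 15, 15 and 13 peaks of 82-kDa ChAT after vehicle and 16, 15 and 19 after Aβ1-42. For SATB1 the numbers were 11, 4 and 12 after vehicle and 14, 17 and 21 after Aβ1-42. The peaks touching no exon of any transcript were 95.3%, 98%, 92.6% and 98.1% of the peaks, and 90.7%, 90.6%, 91.7% and 95% in other protein-coding genes. Exons were touched in 5 genes. The peaks that 82-kDa ChAT and SATB1 shared in CNTNAP2 after vehicle touched a non-coding exon and the promoter of 1 of its 24 transcripts, which starts inside intron 3. In TENM1 a peak of 82-kDa ChAT after vehicle touched the last exon, 35 of 35 on its longest protein-coding transcript. The gene overlaps STAG2 there, so the peak cannot be assigned to either. The SATB1 vehicle peak of NFASC touched coding exon 10 of 30. A SATB1 peak of NRXN2 after Aβ1-42 touched an exon of 1 of its 20 transcripts. In NTM the highest scoring peak of 82-kDa ChAT after Aβ1-42 lay at the start of 1 of 23 transcripts, 25 nt from it. PTPRF had a peak of 82-kDa ChAT after Aβ1-42 in the 2000 nt upstream of a transcript start, 343 nt from it. No adhesion gene had a SATB1 peak in a promoter after Aβ1-42, 0 of 52, which allows up to 5.77%, whereas 9.05% of the peaks in other genes did. Most other genes are shorter, with a median of 27.5 kb for all protein-coding genes against 352 kb here. Exon and promoter shares were not counted for other long genes, so this difference cannot be told apart from one of gene length.

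Between treatments, the adhesion genes took 0.576% of the peaks of 82-kDa ChAT after vehicle (0.417 to 0.776) and 0.788% after Aβ1-42 (0.585 to 1.04). The difference was 0.212 percentage points (−0.0656 to 0.489). For SATB1 the shares were 0.936% (0.618 to 1.36) and 0.888% (0.664 to 1.16), a difference of −0.0484 points (−0.474 to 0.377). Both intervals included 0. Without peaks matching an Alu copy the difference for 82-kDa ChAT was 0.327 points (0.0210 to 0.634). That alternative was added after seeing the data. In every other alternative the interval included 0, as at 0.137 points (−0.169 to 0.442) without CATTC-rich peaks. For 82-kDa ChAT, 15 genes (28.3%) had a peak in both treatments, 14 (26.4%) only after Aβ1-42 and 9 (17%) only after vehicle. The same shares were 3.29%, 7.85% and 7.25% of all protein-coding genes and 57%, 18.9% and 15.8% of those of 500 kb or more. Of the 24 long members, 45.8%, 29.2% and 16.7% fell in these classes. Those only after Aβ1-42 included TENM3, TENM4, NRXN3 and PTPRD, and those only after vehicle included OPCML, NEGR1 and CNTN4. For SATB1, 15 genes (28.3%) had a peak in both treatments, 12 (22.6%) only after Aβ1-42 and 4 (7.55%) only after vehicle, in lists of 5857 and 2884 peaks. All protein-coding genes gave 1.59%, 10.5% and 3.24%, and those of 500 kb or more gave 35.9%, 30.3% and 11.8%. The long members gave 50%, 29.2% and 8.33%. The 4 were NRXN3, CADM3, NTM and LRFN2. NRXN3 thus had peaks of 82-kDa ChAT only after Aβ1-42 and of SATB1 only after vehicle.

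Between proteins, 12 adhesion genes (22.6%) had peaks of both after vehicle, among them CNTN4, CNTN5, CNTNAP2, IL1RAPL1 and TENM2. After Aβ1-42, when the SATB1 list was longer, there were 19 (35.8%), among them PTPRD, LSAMP and all 4 teneurins. Of all protein-coding genes 2.39% and 3.3% had peaks of both, and of those of 500 kb or more 37.5% and 52.3%. Among the 24 long members the shares were 37.5% and 58.3%, near those of long genes in general. The share of 82-kDa ChAT peaks minus that of SATB1 was −0.360 points after vehicle (−0.751 to 0.0314) and −0.0998 points after Aβ1-42 (−0.424 to 0.224). The 19 genes with both proteins after Aβ1-42 held overlapping peaks only in TENM2 and CNTNAP5.

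**Figure D5:**
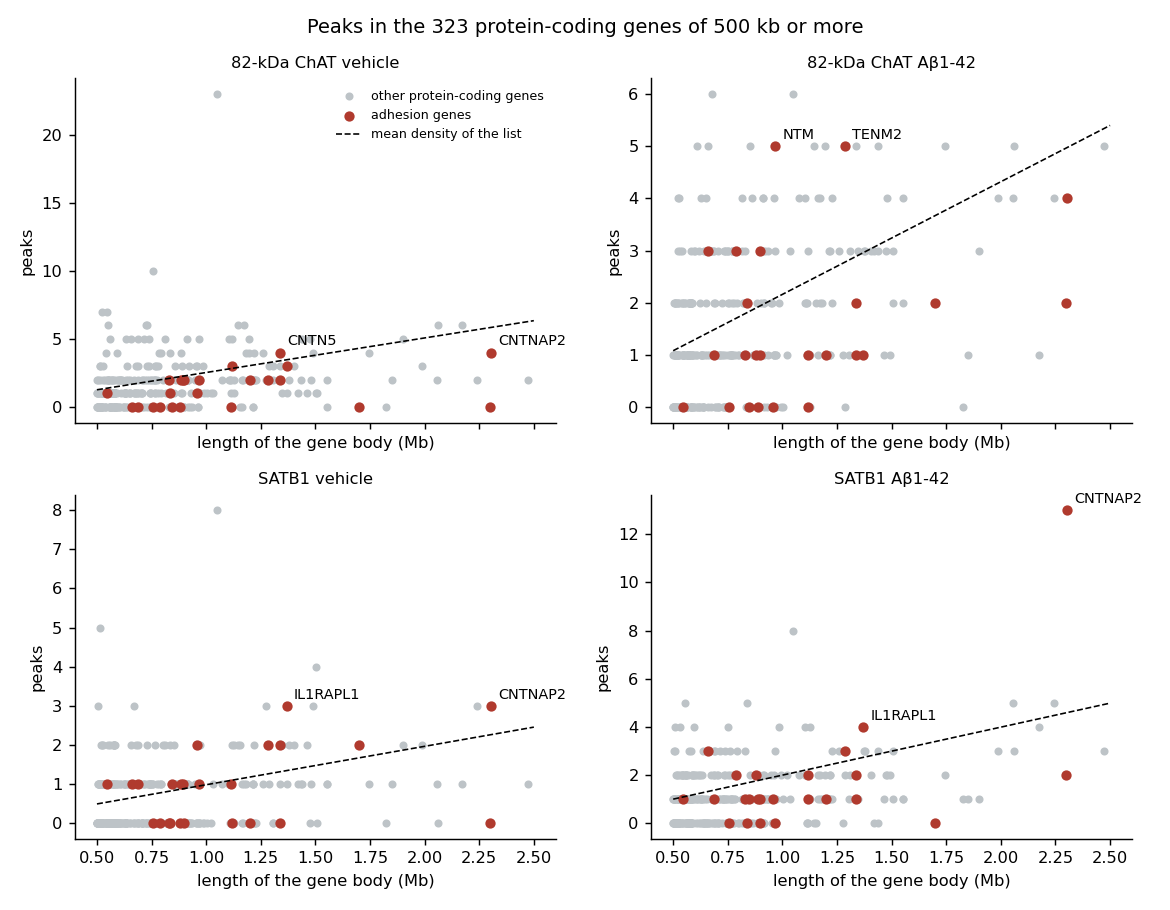
Each point is 1 of the 323 protein-coding genes of 500 kb or more, placed by the length of its body in Mb and its number of peaks, with 1 panel per list, each with its own vertical scale, adhesion genes in red and the mean density of the list as a dashed line. CNTNAP2 lies alone at 13 peaks in the SATB1 list after Aβ1-42, and NTM and TENM2, with 5 peaks each, have the most of the adhesion genes in the list of 82-kDa ChAT after Aβ1-42.

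Other synaptic adhesion genes, outside the 53, were counted the same way. The 35 genes of this comparison list, among them SLITRKs, FLRTs, sidekicks and calsyntenins, cover 6.26 Mb and held 47 peaks in 12 genes. Their ratios to length were 1.01 (0.575 to 1.63), 1.04 (0.566 to 1.74), 1.14 (0.458 to 2.35) and 0.801 (0.384 to 1.47) in the same order of lists. Most of their peaks lay in SDK1 (5, 3, 0 and 3), SDK2 (3, 2, 1 and 3) and LRRC4C (1, 3, 2 and 1). The intervals of the 2 gene sets overlapped in every list.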

How the data were processed

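Chromatin immunoprecipitation followed by sequencing was carried out for 82-kDa ChAT and SATB1 in 4 libraries, 1 per protein and treatment. According to the study's methods and the submitters' processing notes, reads were mapped to hg38 with BWA, MACS called peaks with p below 1e-05, and peaks also found in the input of the same treatment were removed. Tool versions are not given in the sources used here. The deposited lists give each peak's position and a score, which the authors' peak caller made as 10 times −log10 p. No list was pooled or normalized to another. The 2 input samples had no file and were not used here. The read depth of each library is not given in the lists, so it limits an unknown part of the differences in peak number.

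Starts were raised by 1 to count from 1. Chromosomes 1 to 22, X and Y were kept, and peaks were set against gene bodies of GENCODE 44. All 53 symbols were found. The expected number sums, over the peaks of a list, the share of positions at which a peak of that length would touch a gene body. A promoter was the 2000 nt upstream of any transcript start. Introns were numbered on the MANE Select transcript, or for TENM1 on its longest protein-coding transcript. A peak "outside" that transcript lies within the gene body but beyond it. Peaks matched 7SL RNA (RN7SL1) or an Alu copy when blastn gave an e-value of at most 1e-05. Overlap meant at least 1 base. The calculation was tested on simulated data. Python 3.11.15, numpy 2.4.6, scipy 1.17.1, pysam 0.24.0, blastn 2.17.0 and samtools 1.23.1 were used. Named genes were the 20 with the most peaks, those with a peak at an exon or promoter or overlapping a peak of another list, those without a peak, and the 3 of the comparison list with the most peaks. Others were named where a family count is small or a list is given in full, after their values were seen. The members, lists and tests were chosen with earlier results of these data known. Alternatives were other score limits, gene spans, overlap rules, promoter lengths, expected rates, and sets of peaks or genes left out. The sequences of 3 peaks that the rule for printed sequences selects are not reported here.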

Additional observations from a re-analysis of the deposited data

Results flagged for a closer look

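The share of peaks that touched the adhesion genes differed between treatments with opposite signs for the 2 proteins, 0.212 percentage points (−0.0656 to 0.489) for 82-kDa ChAT and −0.0484 points (−0.474 to 0.377) for SATB1, Aβ1-42 minus vehicle. Both intervals included 0, and the SATB1 value was 0.321 points with scores at or above the list median and 0.0659 points without 7SL-matching peaks, so that both proteins then had the same sign. Each value rests on 1 library per treatment and the difference between the proteins was not tested. Without CNTNAP2 the values were 0.202 and −0.166 points.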

How the results depend on the processing

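No paired analysis was possible because each protein and treatment has 1 library, and leaving out a replicate was not possible for the same reason. Ratios of found to expected peaks ranged over 11 alternatives from 0.530 to 0.659 for 82-kDa ChAT after vehicle, 0.715 to 0.841 after Aβ1-42, 0.778 to 1.09 for SATB1 after vehicle and 0.675 to 1.08 after Aβ1-42. With 7SL-matching peaks set against 7SL-like bases, the last ratio was 1.45. The treatment difference for SATB1 was −0.721 points (−1.81 to 0.370) as a share of peaks in protein-coding genes, 0.321 points with scores at or above the list median and 0.0659 points without 7SL-matching peaks. With scores at or above the list median, members with a peak numbered 17 for 82-kDa ChAT after Aβ1-42 and 8 for SATB1 after vehicle. Overlaps then numbered 2 for both proteins after vehicle, and 0 for 82-kDa ChAT between treatments, for both proteins after Aβ1-42, and for 82-kDa ChAT after vehicle with SATB1 after Aβ1-42. The 7SL-matching share of 82-kDa ChAT after Aβ1-42 was then 0%. Members with a SATB1 peak after Aβ1-42 numbered 15 without 7SL-matching peaks and 10 without peaks matching an Alu copy. Where at least 50% of the shorter peak had to overlap, 82-kDa ChAT shared 1 locus between treatments. On the MANE Select transcript alone (for TENM1 the longest protein-coding one), promoter peaks numbered 0 in both vehicle lists and exon peaks numbered 0 in both Aβ1-42 lists. Thus 100% of the peaks in the Aβ1-42 lists touched none of its exons. Some of them, as in ADGRL2 and LSAMP, lay outside that transcript and so in none of its introns. Score limits, left-out peaks and the MANE transcript count fewer peaks or transcripts by construction, and other causes were not tested. The remaining 125 values, over all results and alternatives, moved by less than their counting error or, for counts, by at most 1.5 times, among them SATB1 ratios that passed 1 (to 1.09 after vehicle with the rate of protein-coding genes, to 1.08 after Aβ1-42 with the score limit). The alternatives on Alu copies, CNTNAP2 and 7SL-like bases were added after seeing the data.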
